A study of Mus musculus with 10 samples.

Results

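The 9 genes described here, Acta2, Myh11, Tagln, Cnn1, Des, Pdgfrb, Rgs5, Abcc9 and Notch3, are markers of the mural cells of blood vessels, and they were chosen by name out of 22024 gene identifiers measured in mouse lumbar spinal cord. Each symbol matched 1 mouse Ensembl identifier, and all 9 passed the filter on low counts, Cnn1 only just (below). The cords came from 10 female mice aged 3 months, with 1 polyA RNA library per animal. In the M337V group (n = 5, numbered 1, 2, 3, 7 and 9) the transgene was human TARDBP, which encodes TDP-43, bearing the M337V mutation linked to amyotrophic lateral sclerosis (ALS). It was delivered within a BAC, a large genomic clone, inserted at Rosa26. The WT group (n = 2, numbered 8 and 10) had the same human construct without the mutation, and the NTg group (n = 3, numbered 4, 5 and 6) was labelled nontransgenic. Mouse Tardbp was present in all groups, read at 227 to 279 CPM in every library. Each construct was carried by a single line made from targeted embryonic stem cells and crossed to C57BL/6J for at least 3 generations, and the labels do not say whether a given animal had 1 or 2 copies of the insertion.

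Mural cells wrap the endothelial tube of a vessel. Smooth muscle cells encircle arteries and arterioles and narrow them by sliding actin over myosin, whereas pericytes lie on capillaries and are recruited by PDGF-B from the endothelium acting on the receptor PDGFRβ. NOTCH3 receives signals from ligands on neighbouring cells and maintains the mural state, and serum response factor with its partner myocardin switches on contractile genes at short promoter elements called CArG boxes. In the spinal cord the larger muscular vessels run in the pia on its surface, and capillaries with pericytes fill the grey and white matter.

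Levels are given in CPM, counts scaled to a common library total with TMM factors, and differences are log2 values with their standard error from edgeR's quasi-likelihood test, called at an adjusted p below 0.05 over the 15191 genes tested. Library totals ran from 18724888 to 21041474 counts. The 7 transgenic libraries held 114 to 141 CPM of human TARDBP, and NTg 5 and NTg 6 held 0.0492 and 0.186 CPM, but the library labelled NTg 4 held 118 CPM and so goes against its label. It is called NTg 4 below only as its label has it, every NTg mean includes it, and values without it were computed for the 9 genes but not for the genes of other lists. Cord markers were present in every library, with the synaptic gene Snap25 at 2592 to 3419 CPM. The 8 genes of the cord list summed to 18615 to 22934 CPM across M337V, 19645 to 21401 CPM across WT and 14820 to 16373 CPM across NTg libraries. Mbp, the myelin basic protein gene of oligodendrocytes, made up most of that sum and rose to 14638 ± 1311 CPM in M337V and 14505 ± 1363 CPM in WT, against 10719 ± 687 CPM in NTg (edgeR, adjusted p = 0.0225 for M337V and 0.0314 for WT against NTg), and its part in the results on mural genes was not tested. The caudal gene Hoxc10 was low (9.68 CPM in WT 8 and 9.93 CPM in M337V 3) against 44.9 to 76.6 CPM elsewhere. Markers of tissue around the cord varied between libraries. The 14 genes of a skeletal muscle list, which includes the interneuron gene Pvalb, summed to 121 to 348 CPM across the M337V libraries. In WT 8 and WT 10 the sums were 919 and 141 CPM, and in NTg 4, 5 and 6 they were 275, 1054 and 1567 CPM. The 16 genes of a meningeal fibroblast list summed to 197 to 573 CPM across M337V, 157 to 252 CPM across WT and 307 to 975 CPM across NTg libraries.

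Per length of transcript the 9 genes covered a wide range. Rgs5, which encodes a regulator of G protein signalling that is among the most abundant mural transcripts, stood far above the others at 35.6 ± 5.34 CPM per kilobase of exon (SD over the 10 libraries). Below it came Tagln at 3.82 ± 1.22, Pdgfrb at 3.38 ± 0.70, Notch3 at 3.21 ± 0.59, Acta2 at 2.62 ± 1.17, Abcc9 at 2.23 ± 0.46, Des at 2.08 ± 1.97 and Myh11 at 0.925 ± 0.329 CPM per kilobase. Cnn1 was lowest at 0.0932 ± 0.0687 CPM per kilobase. The library ranges of the neighbours from Tagln to Des overlapped, so their order is within the spread, while those of Rgs5 and Cnn1 met no other gene's range.

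**Figure D1:**
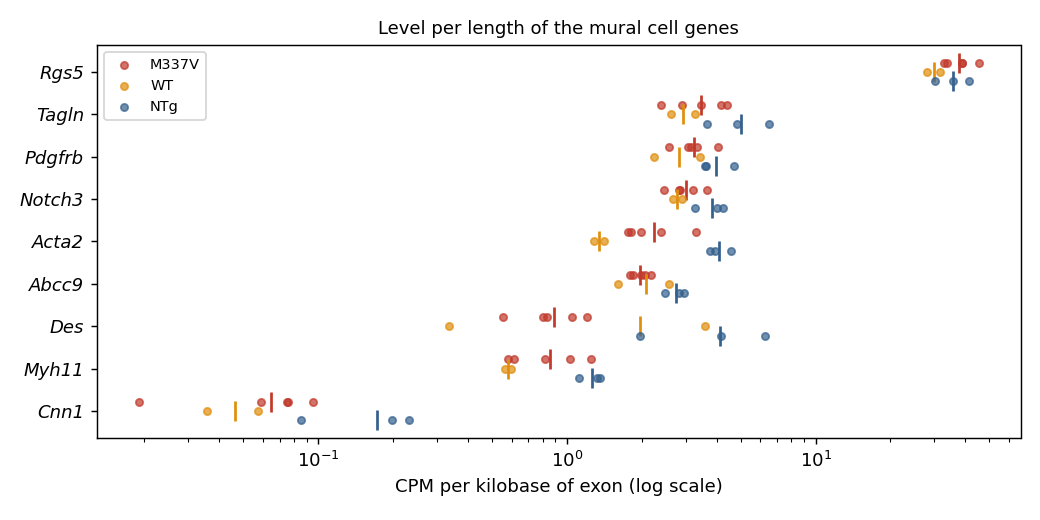
Level per length of the 9 mural cell genes on a log axis (CPM per kilobase of exon), with 1 dot per library and a tick at each group mean, for M337V, WT and NTg from top to bottom in each row. Rgs5 lies near 35.6 and Cnn1 near 0.0932 CPM per kilobase, and the other genes lie between.

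Among the 5 contractile genes, Acta2 fell against NTg in both transgenic groups, Des fell in M337V and Myh11 fell in WT, while Tagln and Cnn1 passed in neither comparison. Acta2 (ENSMUSG00000035783, GRCm38 chromosome 19, 34241090 to 34255590, minus strand) encodes the actin of smooth muscle. It stood at 3.99, 4.34, 3.87, 7.23 and 5.25 CPM in M337V 1, 2, 3, 7 and 9, at 3.09 and 2.82 CPM in WT 8 and 10, and at 8.66, 10.00 and 8.29 CPM in NTg 4, 5 and 6. Every M337V library lay below every library labelled NTg, as for 8.60% of the genes tested, and so did both WT libraries, as for 22.1%. The WT libraries also lay below every M337V library, as for 4.85%. NTg 4, which held human TARDBP at 118 CPM, lay with the other NTg libraries at 8.66 CPM of Acta2. Acta2 fell by 0.86 ± 0.19 on the log2 scale in M337V against NTg (edgeR, adjusted p = 0.0328), which is 0.55 of the NTg level, and by 1.60 ± 0.26 in WT against NTg (adjusted p = 0.0117), 0.329 of the NTg level. Without NTg 4 these were -0.88 (adjusted p = 0.0666) and -1.62 (adjusted p = 0.0268). In bulk tissue fewer cells of a type cannot be told apart from less RNA in each of them, here and for every gene below.

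Reads of Acta2 could be confused with those of other actin genes, whose coding sequences are very alike. Acta1, the skeletal muscle actin, was at 5.77 to 37.4 CPM in M337V, at 119 CPM in WT 8 and 5.26 CPM in WT 10, and at 34.2, 116 and 167 CPM in NTg 4, 5 and 6. Acta1 was thus also higher in NTg 5 and NTg 6 than in every M337V library, while in WT 8, where Acta1 was high, Acta2 was at 3.09 CPM. How the counting divided reads between these genes was not tested. Actg2, the enteric smooth muscle actin, never exceeded 0.186 CPM.

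The stretch upstream of the RefSeq start of Acta2 (GRCm38.p6) is shown because contractile genes are read through CArG boxes. A CArG box is 10 bases long, a pair of C, a core of 6 A or T, and a pair of G, and it reads alike on both strands. The capitals mark each place in the 250 bases before the start where the element is met with 1 difference allowed in the core. The pieces lie 84 to 75 and 34 to 25 bases before the start, at chr19:34255438-34255467 and chr19:34255388-34255417 on the minus strand, and GENCODE places both in the first exon of a longer Acta2 transcript.
Acta2 distal: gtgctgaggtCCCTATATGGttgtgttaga
Acta2 proximal: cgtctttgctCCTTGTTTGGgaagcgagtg
An upstream window of the same length was searched for 6 of the 9 genes, namely Acta2, Cnn1, Des, Rgs5, Abcc9 and Notch3. The remaining genes were not searched, so nothing is said of matches in them. Des and Rgs5 had the widest and the narrowest range over libraries. Their windows read as follows, with no such match to capitalise.
Des (chr1:75360042-75360291, plus strand): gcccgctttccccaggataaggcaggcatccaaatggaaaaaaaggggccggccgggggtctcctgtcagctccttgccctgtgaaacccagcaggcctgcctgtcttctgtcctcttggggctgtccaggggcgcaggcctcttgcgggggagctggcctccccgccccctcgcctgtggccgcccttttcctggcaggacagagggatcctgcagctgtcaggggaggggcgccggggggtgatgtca
Rgs5 (chr1:169655251-169655500, plus strand): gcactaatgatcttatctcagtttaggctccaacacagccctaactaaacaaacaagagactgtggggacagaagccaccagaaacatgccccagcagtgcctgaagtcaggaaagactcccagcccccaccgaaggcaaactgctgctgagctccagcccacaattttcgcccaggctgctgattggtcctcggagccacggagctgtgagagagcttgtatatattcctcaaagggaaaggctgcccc
Acta2 was the 1 gene of the 6 with such a match, against 8.59% of all 32851 promoter windows, and none of the 6 held an exact CArG box, against 1.47% of all windows. TGGGAA, the core of the site for the Notch effector RBPJ searched on both strands, was found in Acta2 (27 to 22 bases before the start, partly within the proximal CArG match) and in Abcc9, and in 21.6% of all windows. A match is a description of these letters and says nothing of binding in the cord.

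Myh11 (chromosome 16, 14194535 to 14291372), the myosin heavy chain of smooth muscle, had a pattern close to that of Acta2. It stood at 6.19, 4.40, 4.65, 9.51 and 7.85 CPM in M337V 1, 2, 3, 7 and 9, at 4.55 and 4.29 CPM in WT 8 and 10, and at 10.1, 10.3 and 8.47 CPM in NTg 4, 5 and 6. The WT libraries were all below NTg, while M337V 7 lay above NTg 6, so M337V and NTg overlapped. The difference was -1.12 ± 0.29 in WT against NTg (adjusted p = 0.0452), 0.459 of the NTg level, and -0.56 ± 0.22 in M337V against NTg (adjusted p = 0.138), which did not pass. The WT call was lost without NTg 4 (-1.08, adjusted p = 0.0987) and without any other single NTg or WT library (adjusted p = 0.0852 to 0.167).

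Tagln (chromosome 9, 45929619 to 45936058) encodes transgelin, an actin-binding protein of smooth muscle. It stood at 5.78, 4.77, 8.31, 8.73 and 6.86 CPM in M337V 1, 2, 3, 7 and 9, at 6.49 and 5.21 CPM in WT 8 and 10, and at 12.9, 9.60 and 7.26 CPM in NTg 4, 5 and 6. NTg 4 was the highest library, M337V overlapped NTg, and WT lay below it. Neither difference passed, with -0.53 ± 0.21 in M337V against NTg (adjusted p = 0.154) and -0.76 ± 0.28 in WT against NTg (adjusted p = 0.113). Without NTg 4 they were -0.28 ± 0.22 (adjusted p = 0.514) and -0.52 (adjusted p = 0.299).

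Cnn1 (chromosome 9, 22099216 to 22109630), calponin 1, an actin-binding protein that restrains myosin, was close to the limit of detection. It had 4, 3, 5, 4 and 1 counts in M337V 1, 2, 3, 7 and 9, 3 and 2 counts in WT 8 and 10, and 13, 11 and 5 counts in NTg 4, 5 and 6. It passed the filter on low counts only through NTg 4 and NTg 5, the libraries in which it was high, so its differences of -1.37 ± 0.48 in M337V against NTg (adjusted p = 0.111) and -1.84 ± 0.67 in WT against NTg (adjusted p = 0.116), neither of which passed, are not independent of that choice.

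Des (chromosome 1, 75360329 to 75368579) encodes desmin, the intermediate filament of smooth muscle and pericytes, and also of skeletal and cardiac muscle. It stood at 3.12, 3.00, 4.54, 3.93 and 2.08 CPM in M337V 1, 2, 3, 7 and 9, at 13.5 and 1.27 CPM in WT 8 and 10, and at 7.39, 15.7 and 23.6 CPM in NTg 4, 5 and 6. Every M337V library was below every NTg library, while the WT libraries lay on either side of NTg 4. Des fell by 2.22 ± 0.53 in M337V against NTg (adjusted p = 0.0421), 0.214 of the NTg level, and the difference was -1.09 ± 0.67 in WT against NTg (adjusted p = 0.337). The WT value was -3.61 ± 0.68 (adjusted p = 0.0435) without WT 8 and -0.21 ± 0.49 (adjusted p = 0.858) without WT 10.

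Des moved with the skeletal muscle list. NTg 6, NTg 5 and WT 8, where Des was highest, were also the libraries with the highest muscle sums (1567, 1054 and 919 CPM), and WT 10 and M337V 9, where Des was lowest, had the lowest (141 and 121 CPM). All 14 muscle genes were tested, and 2 of them fell in M337V against NTg, when 1.61% of all genes tested were called lower, with a list median of -2.59. These were Myh2, a myosin of fast fibres (3.60 ± 2.69 CPM in M337V and 29.8 ± 19.7 CPM in NTg), and Mb, myoglobin (4.42 ± 2.72 CPM in M337V and 28.2 ± 16.8 CPM in NTg). With the muscle score as a covariate, an alternative chosen after seeing the data, Des differed by -0.56 ± 0.21 (adjusted p = 0.203) in M337V against NTg and by -0.37 ± 0.21 (adjusted p = 0.321) in WT against NTg. Under the same covariate Acta2 differed by -0.85 ± 0.25 in M337V (adjusted p = 0.130) and by -1.60 ± 0.29 in WT against NTg (adjusted p = 0.0190). The M337V calls of Des and of Acta2 were both lost, and the part of muscle tissue in either result was not tested further.

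**Figure D2:**
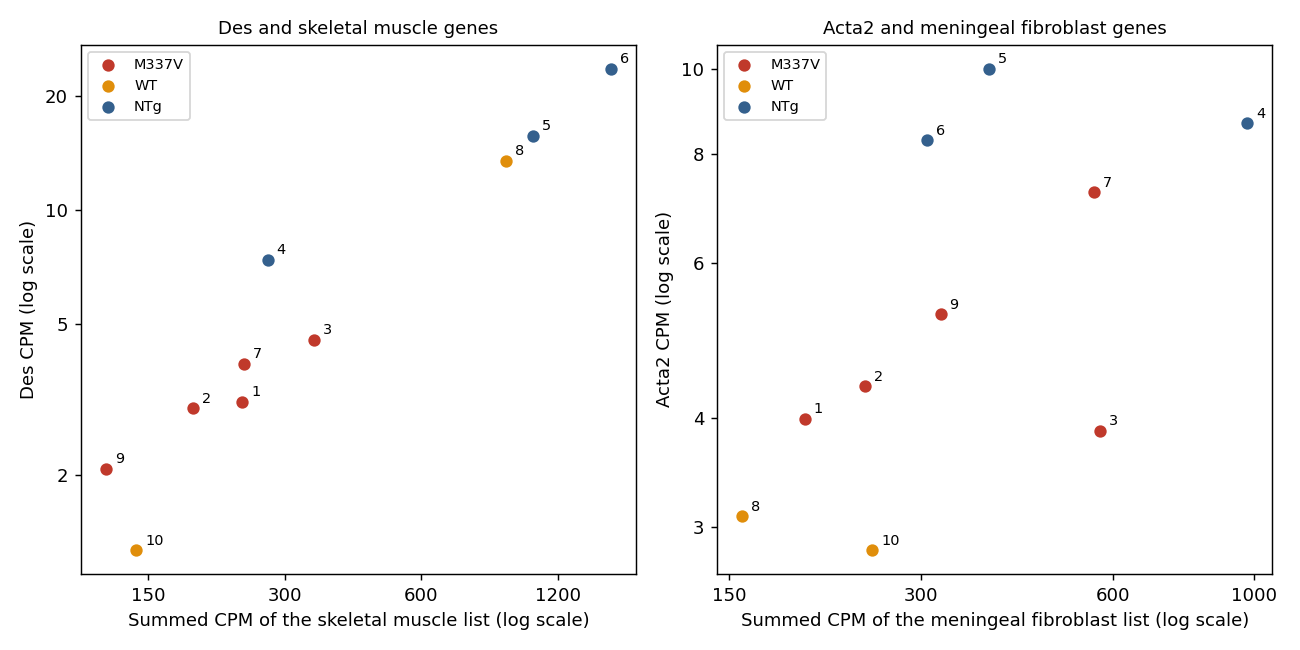
Left, Des against the summed level of the skeletal muscle list, and right, Acta2 against the summed level of the meningeal fibroblast list, in CPM on log axes with 1 numbered dot per library coloured by group. Des is high in NTg 6, NTg 5 and WT 8, where the muscle sum is high. Acta2 is highest in the NTg libraries, with meningeal sums from 307 to 975 CPM, and lowest in WT, with sums from 157 to 252 CPM. M337V lies between in Acta2, with sums from 197 to 573 CPM.

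None of the 4 pericyte and signalling genes passed the threshold in either comparison with NTg. Rgs5 (chromosome 1, 169655501 to 169695813) stood at 154, 176, 176, 150 and 205 CPM in M337V 1, 2, 3, 7 and 9, at 144 and 128 CPM in WT 8 and 10, and at 189, 137 and 162 CPM in NTg 4, 5 and 6. The NTg range overlapped those of M337V and WT, while the WT libraries lay below every M337V library. Its difference was 0.08 ± 0.11 in M337V against NTg (adjusted p = 0.700), with a 95% interval from -0.17 to 0.33, and -0.26 ± 0.14 in WT against NTg (adjusted p = 0.282), from -0.57 to 0.05. Without NTg 4 these were 0.21 ± 0.12 (adjusted p = 0.353) and -0.13 ± 0.14 (adjusted p = 0.627).

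Abcc9 (chromosome 6, 142587862 to 142702315) encodes the SUR2 regulatory subunit of the ATP-sensitive potassium channel of pericytes and smooth muscle. It stood at 17.2, 15.1, 15.5, 16.7 and 18.3 CPM in M337V 1, 2, 3, 7 and 9, at 21.5 and 13.4 CPM in WT 8 and 10, and at 24.8, 20.7 and 23.6 CPM in NTg 4, 5 and 6. All M337V libraries lay below all NTg libraries, and WT 8 lay among NTg while WT 10 was the lowest library. Over the 10 libraries the log2 level of Abcc9 ran with that of Des (Pearson r = 0.81, and 0.58 after removal of the group means). The part of muscle tissue in the level of Abcc9 was not tested further. The difference in M337V against NTg, -0.48 ± 0.13, missed the threshold (adjusted p = 0.0574). It also missed in edgeR with DESeq2 size factors (adjusted p = 0.0582), with no filter (0.0562) and with a minimum of 1 CPM in every group. Further misses came with the skeletal muscle covariate and among the libraries named TDP_2 to TDP_8 alone. The same difference passed with DESeq2 (adjusted p = 0.0142), with limma-voom (0.0302), in a fit of both groups alone (0.0178), with robust dispersions (0.0493) and without both NTg 4 and WT 8 (0.0477). In WT against NTg it was -0.40 ± 0.16 (adjusted p = 0.152), and -0.78 ± 0.14 (adjusted p = 0.0435) without WT 8 or -0.10 ± 0.13 (adjusted p = 0.733) without WT 10.

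Notch3 (chromosome 17, 32120820 to 32166852), the Notch receptor of mural cells, stood at 22.8, 23.1, 19.9, 29.7 and 26.0 CPM in M337V 1, 2, 3, 7 and 9, at 23.5 and 21.6 CPM in WT 8 and 10, and at 34.2, 26.5 and 32.6 CPM in NTg 4, 5 and 6. Only M337V 7 reached the NTg range, and both WT libraries were below it. The differences were -0.36 ± 0.12 in M337V against NTg (adjusted p = 0.0965) and -0.47 ± 0.15 in WT against NTg (adjusted p = 0.0866).

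Pdgfrb (chromosome 18, 61045150 to 61085061), the receptor through which the endothelium recruits pericytes, stood at 17.3, 14.1, 16.9, 22.1 and 18.3 CPM in M337V 1, 2, 3, 7 and 9, at 18.8 and 12.2 CPM in WT 8 and 10, and at 25.7, 19.7 and 19.8 CPM in NTg 4, 5 and 6. M337V 7 lay within the NTg range, and WT lay below it. The differences were -0.29 ± 0.16 in M337V against NTg (adjusted p = 0.282) and -0.49 ± 0.20 in WT against NTg (adjusted p = 0.161). Without NTg 4 the difference in M337V was -0.15 ± 0.17 (adjusted p = 0.684). In WT it was -0.83 ± 0.23 (adjusted p = 0.0695) without WT 8 and -0.21 ± 0.22 (adjusted p = 0.651) without WT 10.

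**Figure D3:**
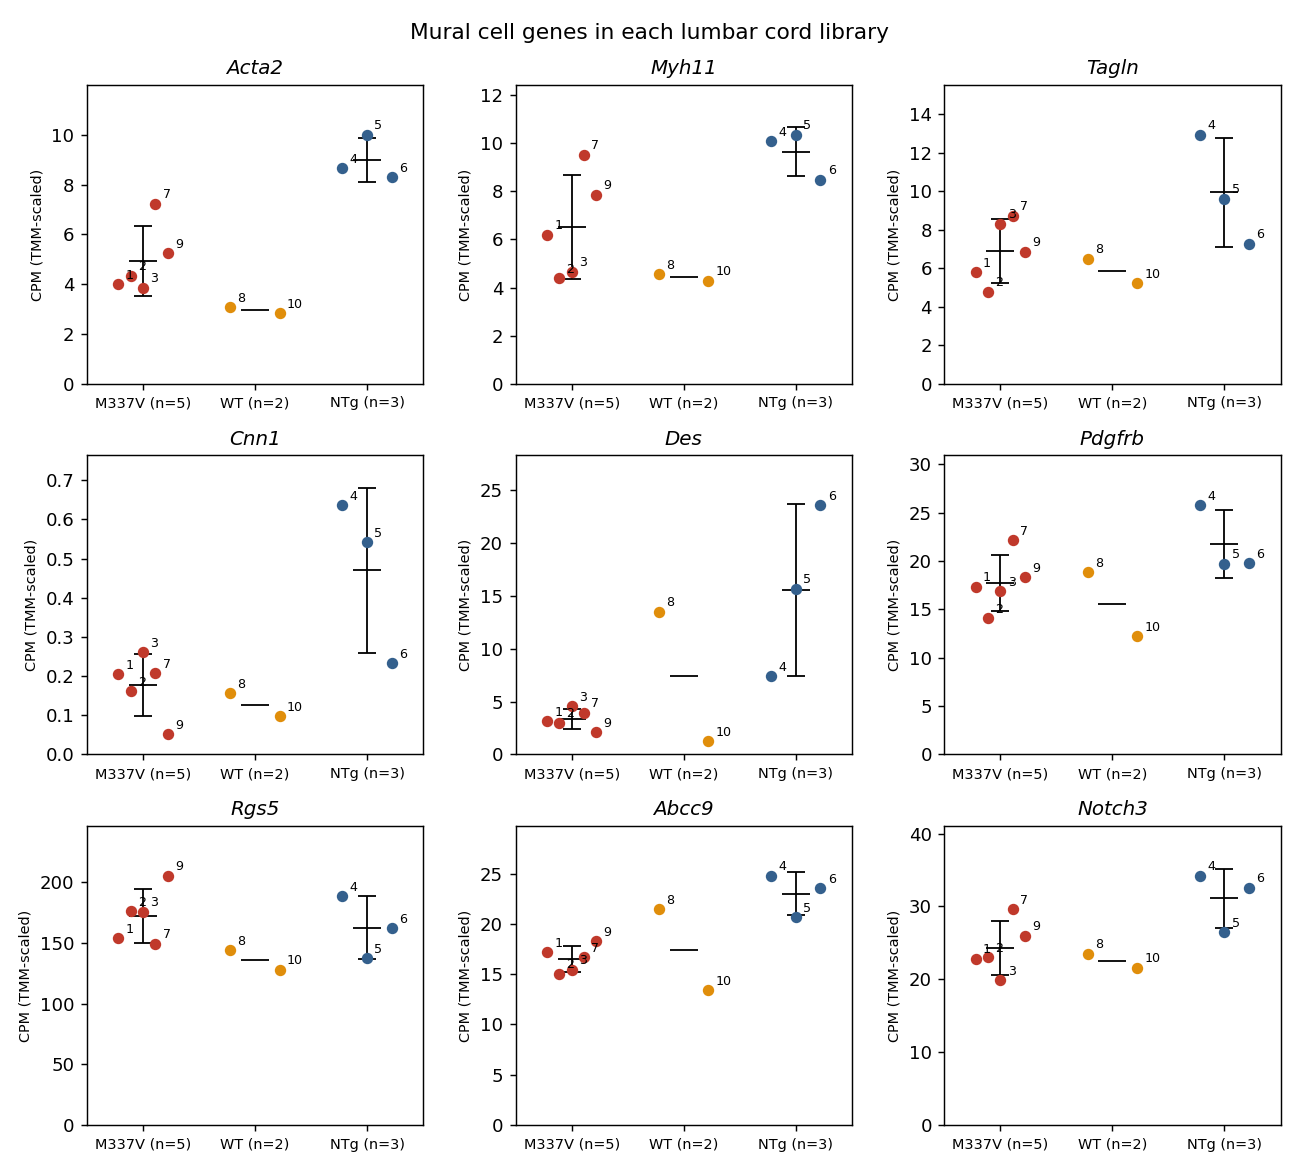
TMM-scaled CPM of each gene in every library, numbered by animal, with M337V left, WT in the middle and NTg right; black marks are group means, with the SD for M337V and NTg. Acta2 lies between 3.87 and 7.23 CPM in M337V and between 8.29 and 10.00 CPM in NTg. For Rgs5 the NTg range overlaps those of M337V and WT, and the WT libraries lie below every M337V library.

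Across the 9 genes, 2 fell and 0 rose in M337V against NTg (Acta2 and Des), when 1.61% of the 15191 genes tested were called lower and 2.67% higher (4.29% in either direction). The median difference of the 9 was -0.53, and that of all genes tested was -0.01. For 3 of the 9 (Acta2, Des and Abcc9) every M337V library was below every NTg library, as it was for 8.60% of the genes tested, and for 0 of the 9 was every one above (9.51% of the genes tested). Without Cnn1, whose passing of the filter was not independent of its difference, the median of the other 8 was -0.50. The 4 contractile genes other than Cnn1 had a median of -0.71 and the 4 pericyte and signalling genes one of -0.33, and the difference between these groups of genes was not tested. These counts turned on single libraries. Acta2 lost its call without M337V 1, 2 or 3 or any NTg library (adjusted p = 0.0544 to 0.149), and Des without any M337V library, NTg 5 or NTg 6 (0.0515 to 0.211). Without both NTg 4 and WT 8 the called genes were Des and Abcc9.

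The M337V animals were themselves uneven. Those whose library names run from TDP_10 to TDP_12 (M337V 1, 2 and 3) had 3.87 to 4.34 CPM of Acta2, and M337V 7 and 9, whose names fall in the run from TDP_2 to TDP_8 with all WT and NTg libraries, had 7.23 and 5.25 CPM. Within the run from TDP_2 to TDP_8, M337V against NTg gave -0.52 ± 0.17 for Acta2 (adjusted p = 0.282), -0.14 ± 0.14 for Myh11 (0.722) and -2.37 ± 0.85 for Des (0.307), with 0 of the 9 genes called. Without M337V 7 and 9 it gave -1.14 ± 0.13 for Acta2 (adjusted p = 0.00638) and -0.92 ± 0.16 for Myh11 (0.0173). The labels do not say whether the library names mark a batch, and the part of such runs in the result was not tested further.

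In WT against NTg 2 of the 9 genes fell and 0 rose (Acta2 and Myh11), when 2.05% of all genes tested were called lower and 3.59% higher (5.64% in either direction). The median of the 9 was -0.76, against -0.02 over all genes tested. For 6 of the 9 both WT libraries were below every NTg library, as they were for 22.1% of the genes tested, and for 0 of the 9 were both above every NTg library (19.6% of the genes tested). Without Cnn1 this was 5 of 8, with a median of -0.63 over the 8 genes. Both comparisons use the same NTg libraries, so their likeness is no independent support. Without WT 10 neither call held (Acta2 -1.54, adjusted p = 0.0518), and without both NTg 4 and WT 8 Acta2 was -1.68 (0.0620) and Des was the gene called. WT 10 held the lowest level of 6 genes among all 10 libraries (Acta2, Myh11, Des, Pdgfrb, Rgs5 and Abcc9).

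M337V against WT sets the mutant construct against the same construct without the mutation, and 0 of the 9 genes passed with edgeR, as did 0 of all 15191 genes (0%). At an unadjusted p below 0.05 there were 2 of the 9 and 1012 of all genes, and DESeq2 called 0 of the 9 and 30 of all genes. Acta2 was higher in M337V by 0.74 ± 0.24 (4.94 ± 1.39 CPM in M337V and 2.96 ± 0.18 CPM in WT; adjusted p = 0.649), with a 95% interval from 0.22 to 1.26. Rgs5 gave 0.34 ± 0.13 (172 ± 22.3 CPM in M337V and 136 ± 11.4 CPM in WT; adjusted p = 0.728). For these 2 genes every M337V library lay above both WT libraries, as for 4.85% of all genes tested, and for 0 of the 9 was every one below (4.65%). The intervals of the other genes all included 0 and were wide, from -2.50 to 0.23 for Des and from -0.03 to 1.15 for Myh11, so the groups were not shown to be alike.

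**Figure D4:**
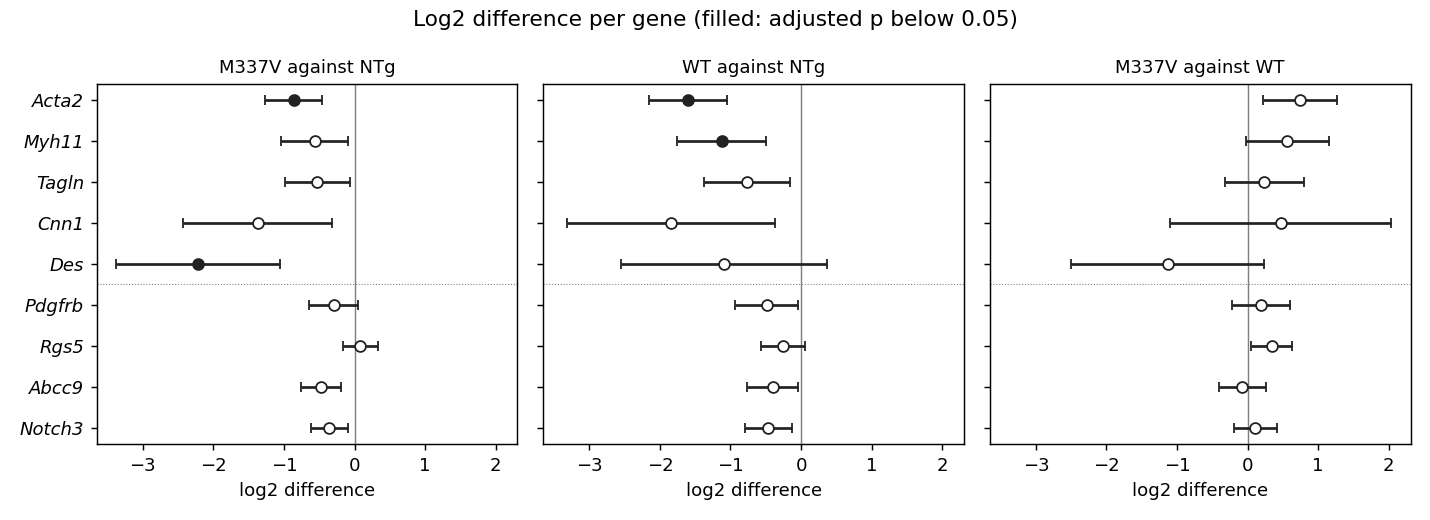
Log2 difference of each gene in M337V against NTg, WT against NTg and M337V against WT, with 95% intervals from the fit; filled dots passed an adjusted p of 0.05 and the dotted line parts contractile from pericyte and signalling genes. Acta2 lies at -0.86, -1.60 and 0.74, and Rgs5 stays between -0.26 and 0.34.

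Of 19 other genes of smooth muscle contraction 18 were tested, and 1 rose and 0 fell in M337V against NTg, with a median of -0.27. Over all genes tested 2.67% were called higher and 1.61% lower, so 1 gene of 18 is close to the background. The gene that rose was Ppp1r14a, an inhibitor of myosin phosphatase that oligodendrocytes also express (43.0 ± 3.19 CPM in M337V and 31.4 ± 1.95 CPM in NTg; 0.45 ± 0.07, adjusted p = 0.0138). Myl9, the regulatory light chain of smooth muscle myosin, fell in WT against NTg (6.16 ± 0.94 CPM in WT and 11.6 ± 1.86 CPM in NTg; -0.92 ± 0.22, adjusted p = 0.0376), where Ppp1r14a rose by 0.50 ± 0.09 (adjusted p = 0.0135). In M337V against NTg, Myl9, named here after its values were seen, differed by -0.65 with an adjusted p = 0.0529. Mylk, the kinase that starts contraction by phosphorylating that light chain, had 0.00 in M337V against NTg (adjusted p = 0.992) and was likewise named after its values were seen.

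Among 12 regulators around serum response factor, 11 were tested. Over all genes tested 2.67% were called higher in M337V and 3.59% in WT against NTg. In this list 1 rose and 0 fell in each of these comparisons. It was Tgfbr1, a TGF-β receptor (averaging 59.3 ± 2.73 CPM among M337V, 63.1 ± 0.35 CPM among WT and 51.2 ± 1.76 CPM among NTg cords; adjusted p = 0.0445 and 0.0256 for M337V and WT against NTg). The list median was -0.11 in M337V and -0.26 in WT against NTg. The coactivator Myocd did not exceed 0.392 CPM in any library.

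Other pericyte genes showed 0 of 20 called in M337V against NTg, with a median of -0.12. Those with the smallest p were Cspg4, the NG2 proteoglycan of pericytes and oligodendrocyte precursors (-0.43 ± 0.14, adjusted p = 0.0877), and Vtn, vitronectin (adjusted p = 0.213). In WT against NTg 2 of the 20 fell and 0 rose, when 2.05% of all genes tested were called lower and 3.59% higher, with a median of -0.43. They were Heyl, a Notch target of mural cells (11.4 ± 1.39 CPM in WT and 16.4 ± 1.69 CPM in NTg; -0.53 ± 0.13, adjusted p = 0.0385), and Zic1, a transcription factor of mural and meningeal cells and of dorsal neurons (32.8 ± 0.80 CPM in WT and 52.1 ± 7.23 CPM in NTg; -0.66 ± 0.10, adjusted p = 0.0109). Zic1 in M337V was at 50.3 ± 2.58 CPM, and its difference in M337V against WT was 0.62 ± 0.10 (adjusted p = 0.172).

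Of 14 Notch ligands, receptors and targets 0 were called in either comparison with NTg (medians -0.16 in M337V and -0.25 in WT). The ligand Jag2 had the smallest p in both, with 22.8 ± 2.56 CPM among M337V, 20.9 ± 1.05 CPM among WT and 29.0 ± 3.59 CPM among NTg cords (adjusted p = 0.0717 and 0.0538). Next in M337V came the target Hes1, which went the other way (6.86 ± 1.06 CPM in M337V and 5.03 ± 0.66 CPM in NTg; 0.45 ± 0.15, adjusted p = 0.0944). Next in WT came the receptor Notch2 (-0.38 ± 0.16, adjusted p = 0.157). Of the 14 differences 9 were negative and 5 positive in M337V, and 12 and 2 in WT. Of 5 genes for PDGF ligands and PDGF receptor α, 0 were called in M337V. In WT against NTg 2 rose, when 3.59% of all genes tested were called higher. These were Pdgfa (54.9 ± 1.38 CPM in WT and 44.4 ± 0.79 CPM in NTg; adjusted p = 0.0229), a ligand that acts on oligodendrocyte precursors, and Pdgfd, a ligand of PDGFRβ (55.6 ± 9.89 CPM in WT and 36.5 ± 2.42 CPM in NTg; adjusted p = 0.0351).

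Among 10 channel genes, including Kcnj8, which encodes the pore that pairs with SUR2, 0 were called in M337V against NTg. In WT against NTg 1 fell, when 2.05% of all genes tested were called lower. It was the T-type calcium channel gene Cacna1h (18.4 ± 3.53 CPM in WT and 28.4 ± 3.99 CPM in NTg; adjusted p = 0.0431). Kcnj8, named for that partnership, ran from 2.61 to 3.94 CPM in M337V, was 2.93 and 2.05 CPM in WT, and ran from 3.00 to 4.00 CPM in NTg.

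Endothelial and meningeal genes are given beside these results since these cells adjoin the mural cells. Of 18 endothelial genes 0 were called in M337V against NTg (median -0.17). Of the 18 differences 16 were negative and 2 positive, as they were in WT against NTg. In WT against NTg 1 fell (median -0.23), when 2.05% of all genes tested were called lower. It was Vwf, von Willebrand factor, which is most abundant in larger vessels (12.9 ± 1.26 CPM in WT and 38.7 ± 13.2 CPM in NTg; -1.58 ± 0.42, adjusted p = 0.0478). The summed level of the 18 genes was 573 to 769 CPM across M337V, 586 to 655 CPM across WT and 695 to 741 CPM across NTg libraries. Of 16 meningeal fibroblast genes 0 were called in M337V, although all 16 differences were negative with a median of -0.45. Over all genes tested 52.8% of the differences in M337V against NTg and 53.3% of those in WT against NTg were negative. In WT against NTg all 16 differences were again negative (list median -1.32). Of the 16 genes 1 was called lower there, when 2.05% of all genes tested were called lower. It was the collagen gene Col6a1 (8.47 ± 1.93 CPM in WT and 19.0 ± 7.09 CPM in NTg; adjusted p = 0.0445). With the meningeal score as a covariate, also chosen after seeing the data, Acta2 differed by -0.77 ± 0.19 in M337V (adjusted p = 0.0548) and -1.34 ± 0.30 in WT against NTg (adjusted p = 0.0536), Myh11 by -0.82 ± 0.35 in WT (0.236), and Tagln by -0.29 ± 0.16 and -0.15 ± 0.25 (0.323 and 0.801). Cardiac markers summed to 2.75 to 4.70 CPM across M337V, 2.51 to 2.63 CPM across WT and 4.31 to 5.59 CPM across NTg libraries. Schwann cell markers of the nerve roots summed to 308 to 1703 CPM across M337V, 201 to 396 CPM across WT and 551 to 2344 CPM across NTg libraries, and red cell genes to 551 to 3470 CPM across M337V, 360 to 953 CPM across WT and 661 to 1209 CPM across NTg libraries.

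The level of Acta2 relative to that of Rgs5 differed from library to library, in a ratio chosen after its values were seen and not tested. Acta2 counts were 2.59%, 2.46%, 2.20%, 4.84% and 2.56% of the Rgs5 counts in M337V 1, 2, 3, 7 and 9, 2.14% and 2.21% in WT 8 and 10, and 4.59%, 7.28% and 5.12% in NTg 4, 5 and 6. M337V 7 was the 1 library of the M337V and WT groups within the NTg range, whose lower end was set by NTg 4. Without NTg 4 that range began at 5.12% and every M337V and WT library lay below it. Over the 10 libraries, which share depth and scaling, the log2 levels of Acta2 and Myh11 ran together (Pearson r = 0.93, and 0.85 after removal of the group means), and those of Pdgfrb and Abcc9 did too (r = 0.81, and 0.78). Some pairs of a contractile gene with a pericyte or signalling gene also ran together, and others did not, such as Cnn1 with Notch3 (r = 0.46, and -0.26). Examples that did are Tagln with Pdgfrb (r = 0.86, and 0.77), Acta2 with Notch3 (0.83, and 0.65) and Des with Abcc9 (0.81, and 0.58). Rgs5 ran less closely with the other 8 genes over the libraries, with r from -0.11 to 0.32. After removal of the group means its r ran from -0.29 with Cnn1 to 0.48 with Abcc9. These correlations are descriptions over libraries that fall into groups.

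Genes whose pattern over the 10 libraries was most like the mean of the contractile genes were Grm2 (r = 0.96), Ehbp1l1 (0.95), Trim26 (0.94), Ltbp3 (0.94) and Zdhhc8 (0.94). Those most like the mean of the pericyte and signalling genes were Tnrc18 (r = 0.97), Npr1 (0.97), Arhgef17 (0.96), Pear1 (0.96) and Sgo1 (0.95). Sgo1 was low, from 0.146 CPM in WT 10 to 1.13 CPM in NTg 4. The 9 genes themselves and genes without a proper gene name were left out of both rankings, which took the highest r among all others tested. The contractile mean took in all 5 contractile genes. These include Cnn1 and Des, whose highest libraries were 12.2 and 18.6 times their lowest in CPM. After removal of the group means r was 0.68 to 0.84 for the genes from Grm2 to Zdhhc8 and 0.91 to 0.95 for those from Tnrc18 to Sgo1. Npr1, the receptor for atrial natriuretic peptide, stood at 4.34 to 6.25 CPM in M337V, at 4.97 and 3.36 CPM in WT 8 and 10, and at 7.98, 6.11 and 6.75 CPM in NTg 4, 5 and 6.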

How the data were processed

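PolyA RNA of frozen lumbar cords was made into strand-specific TruSeq libraries and read from both ends, per the labels' protocols. The values the authors deposited are whole-number read counts per gene that have not been scaled. Among the tools listed in the submitters' processing notes are STAR 2.4.2a and Subread 1.4.6 with featureCounts, with no role stated. The genome build and annotation of the counts are not given in the sources here. Symbols (21774 of 22024 identifiers), positions and exon lengths come from GENCODE M21 (GRCm38), and promoter sequences from RefSeq (GRCm38.p6).

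Genes were filtered with filterByExpr (minimum count 10), scaled by TMM and tested with edgeR 4.0.16 (R 4.3.3), fitting 1 mean for each group to the 10 libraries, with Benjamini-Hochberg adjustment over 15191 genes. The SE is the log2 difference divided by the root of the F statistic. Log2 CPM for scores and correlations used a prior count of 2. The fit was tested on simulated data. Alternatives used limma 3.58.1, DESeq2 1.42.0 and the settings of the closing section. Every pair of libraries differed beyond counting noise, with a chi-square of at least 4.87 for each degree of freedom. Nothing in the labels ties animals to litters or batches; p-values measure the spread between these animals.

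The genes and lists were chosen with earlier results of these data known. From each list, called genes (up to 3 per direction by p) were named, or else up to 2 with the smallest p; pattern likeness was the 5 highest r per group of genes.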

Additional observations from a re-analysis of the deposited data

How the results depend on the processing

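No paired analysis was possible because the groups share no animal number. The directions of the 8 genes lower in M337V than NTg, and of all 9 in WT against NTg, held in every alternative run, and 0 of the 9 were called in M337V against WT in any; the cause of the changes below was not tested. Of the 9 genes, 2 were called in M337V against NTg and 2 in WT against NTg.

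Leaving out 1 library at a time gave 0 to 3 called genes in M337V against NTg and 0 to 3 in WT against NTg, and medians over the 9 genes of -0.65 to -0.35, of -0.93 to -0.41 and, in M337V against WT, of 0.088 to 0.54. Single differences then ran from -0.026 to 0.21 for Rgs5 in M337V against NTg, and in M337V against WT from -2.01 to 1.39 for Des, -0.38 to 0.30 for Abcc9 and -0.086 to 0.54 for Pdgfrb. Where 1 WT library remained, it was assumed to vary like the other groups.

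In M337V against NTg, libraries TDP_2 to TDP_8 alone gave 0 called genes and a median of -0.34. The skeletal muscle covariate gave 0 (Rgs5 -0.0088) and the meningeal covariate 1. In WT against NTg, limma-voom gave 1, removal of both NTg 4 and WT 8 gave 1, the muscle covariate 1 (median -0.50) and the meningeal covariate 0 (median -0.49). In M337V against WT, removal of both NTg 4 and WT 8 gave a median of 0.54 with Des at 1.39 and Abcc9 at 0.30. There Abcc9 was 0.0010 in TDP_2 to TDP_8 alone, Notch3 was -0.042 without M337V 7 and 9, and Tagln was -0.14 with the meningeal covariate.

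Over all genes, calls in M337V against NTg ran from 2 (without NTg 6) to 1499 (DESeq2), against 651 as reported, and in WT against NTg from 44 (without NTg 6) to 1720 (DESeq2), against 857. Cnn1, with 1 to 13 counts per library, is limited by depth: it has no value with a minimum of 1 CPM in every group, without NTg 4 or NTg 5, or, in comparisons with M337V, when the compared groups were fitted alone.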
